A study of Saccharomyces cerevisiae with 21 samples.

Results

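The comparison set 2 single-deletion strains of *Saccharomyces cerevisiae* directly against each other: *ino4Δ*, which lacks the transcription factor gene *INO4*, and *mga2Δ*, which lacks the transcription factor gene *MGA2*. Its members were the 3 *ino4Δ* and 3 *mga2Δ* libraries, 6 of the 21 in the series, chosen by strain, medium and the absence of a plasmid. Both strains were grown without plasmid in SDC+All, a complete synthetic glucose medium, and harvested in exponential growth. RNA was depleted of ribosomal RNA, reverse transcribed from random primers and sequenced. No wild-type library (BY4741, a MATa laboratory strain, same medium, no plasmid) entered the test, and the 3 wild-type libraries are given only as a reference level. The labels give no background strain for *ino4Δ* and *mga2Δ*. The study used the pair as strains with either the Opi1/Ino2/4 or the Mga2 pathway inhibited. Genes were deleted by one-step PCR-based replacement, and whether the 3 libraries of a strain came from separate cultures or clones is not stated, so p-values measure the spread between these libraries. All values are from bulk RNA of whole cultures, in which fewer cells expressing a gene and less RNA per cell cannot be told apart.

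Ino2 and Ino4 form a heterodimer that binds the UASINO element and activates genes of phospholipid synthesis, and the repressor Opi1 holds Ino2-Ino4 in check unless phosphatidic acid retains Opi1 at the endoplasmic reticulum (ER). Mga2 is an ER-anchored transcription factor that senses tightly packed, saturated membrane lipids. The proteasome then releases its soluble part, which activates *OLE1*, the gene of the only fatty acid desaturase of this yeast. A direct comparison therefore places a strain without an activator of phospholipid head group synthesis beside a strain without an activator of acyl chain desaturation.

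The promoter segments below are shown because they carry the elements through which both regulators are known to act, upstream of genes with large differences between the strains. Each segment has 100 bases and is written 5′ to 3′ on the strand of its gene (R64 assembly, RefSeq sequence and annotation), with the position counted back from the start codon. Capitals mark the UASINO core CATGTG on either strand in the first 6 segments and the low-oxygen response element (LORE) ACTCAACAA in the segment of *OLE1*.
INO1 (chrX:136092-136191, - strand, positions -258 to -159): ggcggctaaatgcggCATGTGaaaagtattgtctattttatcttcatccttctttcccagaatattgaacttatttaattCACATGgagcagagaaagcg
OPI3 (chrX:573063-573162, - strand, positions -227 to -128): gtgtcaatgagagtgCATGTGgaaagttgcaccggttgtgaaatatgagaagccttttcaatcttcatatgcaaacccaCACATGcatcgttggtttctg
ITR1 (chrIV:1445667-1445766, - strand, positions -299 to -200): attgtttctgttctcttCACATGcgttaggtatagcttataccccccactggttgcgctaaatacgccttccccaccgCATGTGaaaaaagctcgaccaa
CHO1 (chrV:208581-208680, - strand, positions -206 to -107): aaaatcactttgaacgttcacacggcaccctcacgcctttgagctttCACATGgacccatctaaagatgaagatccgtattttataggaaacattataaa
CHO2 (chrVII:802090-802189, + strand, positions -350 to -251): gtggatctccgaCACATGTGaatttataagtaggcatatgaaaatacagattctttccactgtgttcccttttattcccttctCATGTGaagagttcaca
FAS2 (chrXVI:108373-108472, + strand, positions -279 to -180): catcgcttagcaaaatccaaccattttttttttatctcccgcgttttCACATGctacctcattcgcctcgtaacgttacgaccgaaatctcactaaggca
OLE1 (chrVII:398239-398338, + strand, positions -389 to -290): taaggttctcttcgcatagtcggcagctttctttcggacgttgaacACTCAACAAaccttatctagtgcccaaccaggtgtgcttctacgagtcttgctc
The window of 500 bases before the start codon held 2 core matches in *INO1* and *OPI3*, 3 in *ITR1* and *CHO2*, where 2 of the matches overlap as a palindrome, and 1 in *CHO1* and *FAS2*. A LORE match stood in the *OLE1* window at positions -343 to -335, and no UASINO core did. A match is a stretch of letters and not a measured binding site.

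The deleted genes were read first, in CPM (a share of the reads of a library, scaled to the same total in every library) after scaling of the libraries by TMM. *MGA2* (YIR033W) was at 210.2, 216 and 205 CPM in *ino4Δ* and at 0.513, 0.435 and 0.617 CPM in *mga2Δ*, with wild-type at 175 to 206 CPM. *INO4* (YOL108C) was at 1.68, 1.48 and 1.03 CPM in *ino4Δ* and at 9.17, 17.4 and 17.9 CPM in *mga2Δ*, with wild-type at 9.49 to 13.4 CPM. Each gene was thus far lower in the strain named for its loss, in every library, with 7 to 10 reads of *MGA2* left per *mga2Δ* library and 18 to 29 reads of *INO4* left per *ino4Δ* library. The log2 fold change of *ino4Δ* over *mga2Δ*, given with its standard error throughout, was 8.63 ± 0.11 for *MGA2* (adjusted p = 3.5e-08) and -3.40 ± 0.33 for *INO4* (adjusted p = 0.00064). *INO2* and *SPT23*, the genes of the partner of Ino4 and of the paralog of Mga2, differed by 0.13 ± 0.11 (adjusted p = 0.44) and 0.05 ± 0.06 (adjusted p = 0.58), and the libraries of the strains overlapped in both. The genes beside both deletions, *YOL107W*, *ZEO1*, *DAL3* and *LYS1*, did not pass the test (log2 fold changes of -0.07 to 0.22). *LEU2*, *MET17* and *URA3*, markers deleted in BY4741, had at most 1 read in any of these 9 libraries. *HIS3*, the other marker gene of BY4741, had reads in every library. It was at 30.7 to 35.7 CPM in *ino4Δ*, 35.0 to 42.8 CPM in *mga2Δ* and 39.6 to 50.8 CPM in wild-type.

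Libraries held 15610451 to 17060991 counts in *ino4Δ* and 16156817 to 16845900 in *mga2Δ*. The RNA of the signal recognition particle, *SCR1*, took 9.74% to 11.7% of the counts in *ino4Δ*, 6.38% to 7.41% in *mga2Δ* and 5.55% to 6.36% in wild-type. Its part in the differences between genes was not tested. Scaling by library totals in place of TMM moved the median log2 fold change of all genes by 0.11 towards *ino4Δ*. Within *mga2Δ*, replicate 1 stood farther from the other libraries (r = 0.986 and 0.988 of log2 CPM) than these stood from each other (r = 0.994).

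In all, 573 genes were higher and 127 lower in *ino4Δ* than in *mga2Δ*, or 9.38% and 2.08% of the 6106 genes tested. A gene was called at a Benjamini-Hochberg adjusted p below 0.05 in edgeR's quasi-likelihood test and a fold change above 1.5. More than 4-fold differences were found for 68 higher and 9 lower genes. The median log2 fold change of all genes tested was 0.01. Counts over lists are those of edgeR, and where a list below had 0 genes in a direction, DESeq2 and limma-voom gave 0 too unless their counts are stated.

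The direction of the differences went with the level of a gene. Of the 333 genes with a mean below 1 CPM in wild-type, 148 (44.4%) were higher in *ino4Δ* and 0 lower. Between 1 and 10 CPM, 247 of 841 genes (29.4%) were higher and 5 lower. From 10 to 100 CPM the counts were 157 higher and 32 lower of 3326 genes (4.72% and 0.962%), and from 100 CPM upwards 21 higher and 90 lower of 1606 (1.31% and 5.60%). Median log2 fold changes in these classes were 0.90, 0.30, 0.03 and -0.17. The class below 1 CPM is shaped by the low-count filter, because a gene this low was tested only where at least 3 of the 6 compared libraries reached 0.605 CPM. Of its 333 genes, 64 reached that minimum in all *ino4Δ* libraries and in no *mga2Δ* library, 57 of them called higher, and 1 reached it in *mga2Δ* alone, so its share and median are no measure of how genes of that level differ. With classes drawn on the mean of the 6 compared libraries, the shares of higher genes were 26.2%, 31.1%, 6.79% and 2.42%. More genes had at least 1 read in *ino4Δ* libraries (6723 to 6733) than in *mga2Δ* (6623 to 6664) or wild-type (6530 to 6553). In a count added after seeing the data, only those genes tested were kept that reached the minimum in all 3 wild-type libraries, which are in neither compared group. Then 245 of 828 genes (29.6%) between 1 and 10 CPM were higher and 5 lower, and 5 of 23 below 1 CPM were higher and 0 lower. For lists with low-level genes, the shares set beside them are from this count: below 10 CPM in wild-type, 250 of 851 genes (29.4%) were higher and 5 (0.588%) lower, and from 10 CPM upwards 3.61% and 2.47%.

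**Figure D1:**
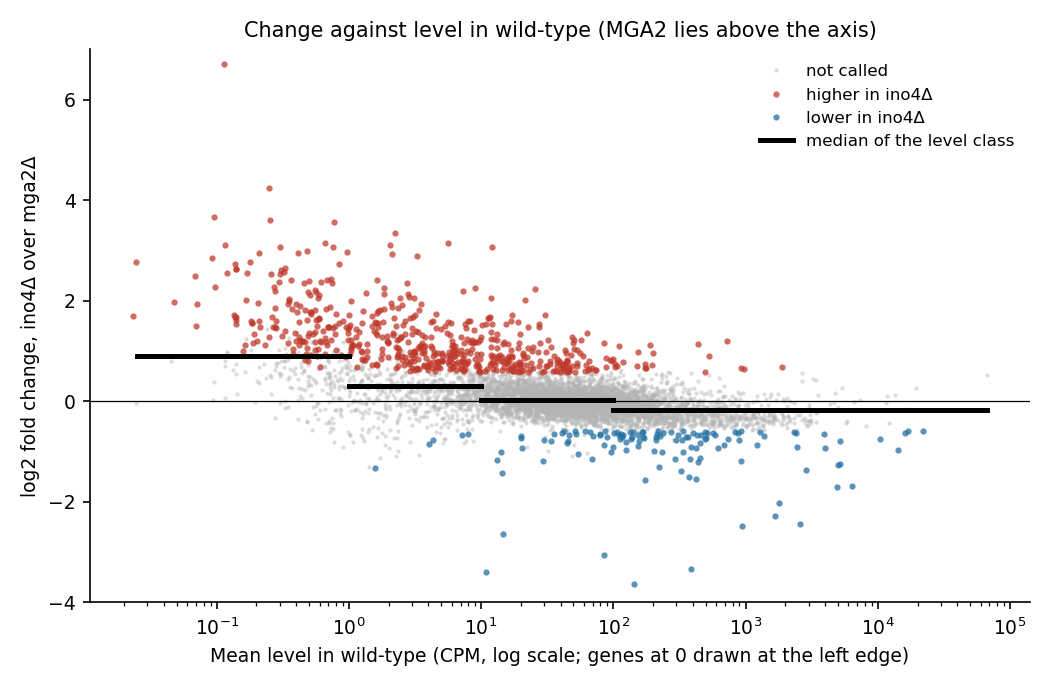
Log2 fold change of *ino4Δ* over *mga2Δ* (y axis) against the mean level in wild-type in CPM (x axis, log scale), 1 point per gene tested, with genes called higher in red and lower in blue and black bars at the median of each level class. The medians fall from 0.30 between 1 and 10 CPM to -0.17 from 100 CPM upwards, and that below 1 CPM (0.90) is shaped by the low-count filter on the compared libraries.

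Genes of inositol and choline supply were lower in *ino4Δ* at the main synthetic enzyme and at both main transporters. *INO1* (YJL153C), the gene of inositol-3-phosphate synthase, the first enzyme of inositol synthesis, was at 45.4, 38.0 and 38.0 CPM in *ino4Δ* and 639.5, 436 and 434 CPM in *mga2Δ*. Its log2 fold change of -3.64 ± 0.18 (adjusted p = 5.3e-05) was the largest among the lower genes. Wild-type, at 123 to 157 CPM, lay between the strains, so the difference between the deletions was wider than that of either from wild-type. *ITR1*, the main inositol transporter gene, was at 258, 254 and 232 CPM in *ino4Δ* and 1297, 1153 and 1160.2 CPM in *mga2Δ*, a log2 fold change of -2.28 ± 0.09 (adjusted p = 1.6e-05), and here wild-type lay above both at 1541 to 1858 CPM. *HNM1*, which encodes the choline transporter, was at 102, 97.9 and 96.1 CPM against 244, 203 and 213 CPM (-1.16 ± 0.08, adjusted p = 0.00022), again with wild-type above both (352 to 403 CPM). *GIT1*, a transporter of glycerophosphoinositol, went the other way at 5.69, 4.64 and 5.77 CPM in *ino4Δ* and 1.60, 2.80 and 2.22 CPM in *mga2Δ* (1.28 ± 0.22, adjusted p = 0.0057). In these 4 genes the libraries of the strains did not overlap. The inositol monophosphatase genes *INM1* and *INM2* and the second inositol transporter gene *ITR2* overlapped between the strains, with log2 fold changes of -0.05 to -0.03. The list thus had 3 lower and 1 higher of 7 genes tested, with a median of -0.05 that became 0.06 with library totals. The 3 lower genes were among 6 members at or above 10 CPM in wild-type, where 2.47% of all genes were lower.

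**Figure D2:**
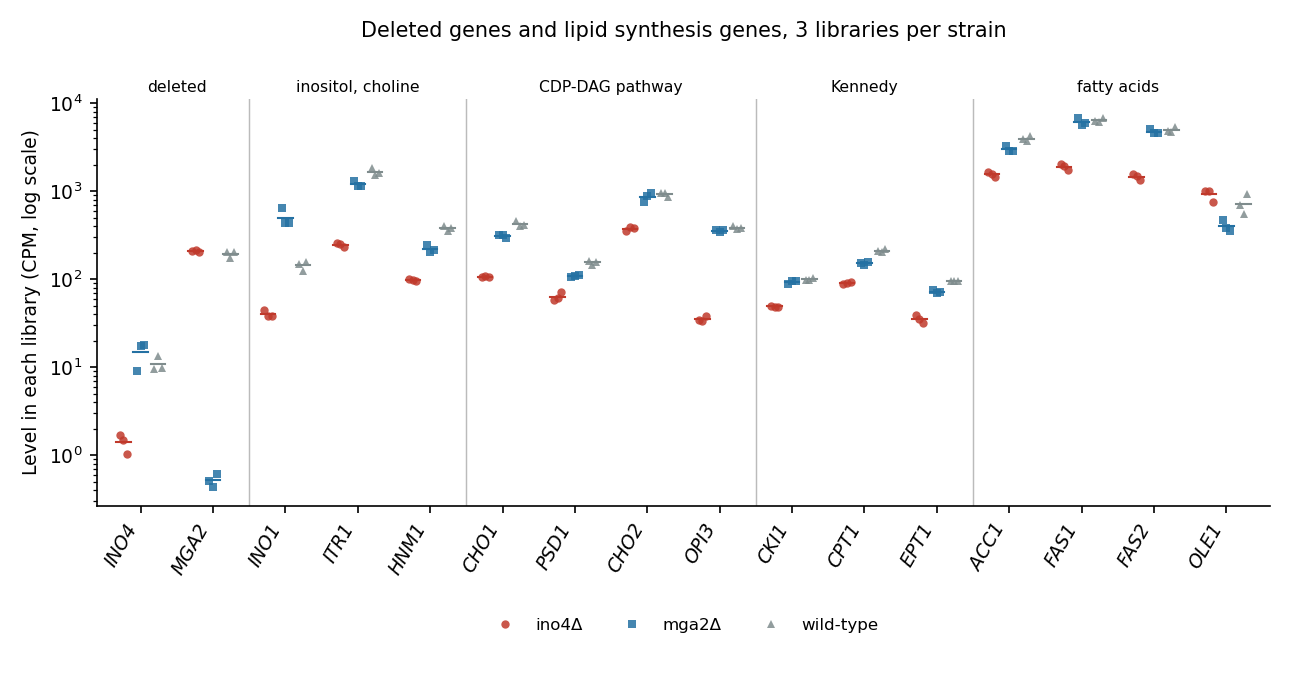
Level in each library in CPM (y axis, log scale) of the deleted genes and of lipid synthesis genes in *ino4Δ* (red circles), *mga2Δ* (blue squares) and wild-type (grey triangles), with 3 libraries per strain and a bar at their mean. *INO1* stood at 38.0 to 45.4 CPM in *ino4Δ* and 434 to 640 CPM in *mga2Δ*, while *OLE1* was the gene of this plot beside *MGA2* that was higher in *ino4Δ*. Levels of different genes are not corrected for gene length.

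The CDP-diacylglycerol pathway, which makes phosphatidylserine, phosphatidylethanolamine and phosphatidylcholine in turn, was lower in *ino4Δ* at the steps from serine to choline head groups. *OPI3*, whose enzyme carries out the final methylations to phosphatidylcholine, was at 34.1, 33.2 and 38.6 CPM in *ino4Δ* and 365, 345 and 362 CPM in *mga2Δ* (-3.34 ± 0.08, adjusted p = 1.6e-06). Wild-type lay above both strains at 371 to 409 CPM, close to *mga2Δ*. *CHO1*, the phosphatidylserine synthase gene, was at 106, 109.8 and 107 CPM against 316, 322 and 298 CPM (-1.54 ± 0.06, adjusted p = 2.2e-05). *CHO2*, the methyltransferase gene before *OPI3*, was at 354, 393 and 385 CPM against 749, 877 and 954 CPM (-1.19 ± 0.11, adjusted p = 0.00044). *PSD1*, the mitochondrial phosphatidylserine decarboxylase gene, was at 57.6, 61.0 and 71.1 CPM against 105, 108 and 113 CPM (-0.78 ± 0.09, adjusted p = 0.0012). None of these 4 genes overlapped between the strains, and their differences ran from 1.72-fold for *PSD1* to 10.1-fold for *OPI3*.

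The other 5 genes of the pathway missed the fold minimum or the test. *CDS1*, which makes CDP-diacylglycerol itself, was at 111, 103 and 89.7 CPM against 157, 139 and 132 CPM (-0.49 ± 0.10, adjusted p = 0.012), apart but under the fold minimum. *TAM41*, its mitochondrial counterpart, differed by 0.37 ± 0.08 (adjusted p = 0.012), also under the minimum. *PIS1*, the phosphatidylinositol synthase gene, differed by -0.21 ± 0.08 (adjusted p = 0.09), *PGS1*, which starts cardiolipin synthesis, by 0.23 ± 0.10 (adjusted p = 0.12) and *PSD2*, the decarboxylase of other membranes, by 0.04 ± 0.08 (adjusted p = 0.73). Over the list, 4 of 9 genes were lower and 0 higher, with a median log2 fold change of -0.49. All 9 lay at or above 10 CPM in wild-type, where 2.47% of all genes were lower.

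The Kennedy pathway, which builds phosphatidylcholine and phosphatidylethanolamine from free choline and ethanolamine, had 3 lower and 0 higher of 6 genes and a median of -0.55. All 6 lay at or above 10 CPM in wild-type, where 2.47% of all genes were lower. *CKI1*, the choline kinase gene, was at 49.9, 49.1 and 48.4 CPM in *ino4Δ* and 87.8, 95.2 and 94.8 CPM in *mga2Δ* (-0.91 ± 0.06, adjusted p = 0.00019). *EPT1*, an ethanolaminephosphotransferase gene, was at 39.7, 35.6 and 32.2 CPM against 74.8, 70.7 and 71.1 CPM (-1.012 ± 0.09, adjusted p = 0.00039). *CPT1*, the cholinephosphotransferase gene, was at 88.7, 89.6 and 92.4 CPM against 155, 147 and 157 CPM (-0.76 ± 0.06, adjusted p = 0.0003). All 3 were separate in every library, and wild-type lay above both strains for each of them (98.6 to 103, 94.8 to 96.2 and 207 to 218 CPM). *PCT1* and *EKI1*, for the choline branch cytidylyl transferase and ethanolamine kinase, were separate too but under the fold minimum (-0.34 ± 0.08 and -0.34 ± 0.09). *ECT1*, for the ethanolamine branch cytidylyl transferase, overlapped (-0.16 ± 0.08, adjusted p = 0.18).

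In the regulatory circuit itself, *OPI1* was at 48.4, 49.7 and 44.98 CPM in *ino4Δ* and 76.0, 81.9 and 76.7 CPM in *mga2Δ* (-0.71 ± 0.07, adjusted p = 0.00062). *SCS2*, which encodes the ER protein that tethers Opi1, was separate but under the fold minimum (-0.35 ± 0.07, adjusted p = 0.0098).

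Fatty acid synthesis and desaturation went in opposite directions. *FAS1*, the gene of the β subunit of fatty acid synthase, was at 2051, 1954 and 1731 CPM in *ino4Δ* and 6750.1, 5737 and 5899 CPM in *mga2Δ* (-1.68 ± 0.10, adjusted p = 0.00014). *FAS2*, for the α subunit, was at 1555, 1503 and 1326 CPM against 5108, 4546 and 4595 CPM (-1.70 ± 0.10, adjusted p = 8.9e-05). *ACC1*, for the acetyl-CoA carboxylase that feeds the synthase, was at 1665, 1588 and 1442 CPM against 3259, 2838 and 2902 CPM (-0.94 ± 0.09, adjusted p = 0.0007). The genes of both synthase subunits were thus lower to nearly the same degree, while in wild-type *FAS1* (6114 to 6855 CPM) and *FAS2* (4656 to 5338 CPM) overlapped with the *mga2Δ* libraries. *ACB1*, for the acyl-CoA binding protein, and *BPL1*, for the biotin ligase of Acc1, were under the fold minimum (-0.43 ± 0.07 and -0.21 ± 0.06), and the mitochondrial carboxylase gene *HFA1* overlapped (0.05 ± 0.06).

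*OLE1* (YGL055W), the target of Mga2, was at 1000.5, 1008 and 752 CPM in *ino4Δ* and 469.8, 385 and 350.0 CPM in *mga2Δ* (1.20 ± 0.15, adjusted p = 0.002). Every *ino4Δ* library was above every *mga2Δ* library, and wild-type (702, 545 and 929.9 CPM) overlapped with *ino4Δ* and lay above *mga2Δ*. The elongase genes did not pass the test, with *ELO1* at 0.16 ± 0.12 (adjusted p = 0.37), *ELO2* at -0.45 ± 0.17 (adjusted p = 0.08) and *ELO3* at 0.14 ± 0.13 (adjusted p = 0.47). The elongation cycle genes *IFA38*, *PHS1* and *TSC13* likewise did not, with log2 fold changes of -0.29 to -0.02. Of the 8 genes of the Mga2 and Spt23 machinery, edgeR called *MGA2* higher and 0 lower, with 4 at an unadjusted p below 0.05. *CDC48*, for the segregase that mobilises the released factor, was at 962, 1040.0 and 1214 CPM against 1375, 1656 and 1744 CPM (-0.57 ± 0.13, adjusted p = 0.015) and the ubiquitin ligase gene *RSP5* differed by -0.24 ± 0.07 (adjusted p = 0.03), both under the fold minimum. *UBX2*, *NPL4*, *UFD1* and *DSK2* had log2 fold changes of -0.15 to 0.05 and no adjusted p below 0.05. Limma-voom called 0 genes of this list lower, and DESeq2 called 1, as did edgeR with RLE size factors, without the low-count filter, without *ino4Δ* replicate 3 or without *mga2Δ* replicate 1.

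The lists of genes that make and remove phosphatidic acid had median log2 fold changes of -0.02 and 0.04. Of 12 genes for phosphatidic acid formation and acyl transfer, 1 was higher and 1 lower, beside 9.38% and 2.08% of all genes tested. All 12 lay at or above 10 CPM in wild-type, where the shares of all genes were 3.61% and 2.47%. The median of -0.02 became 0.09 with library totals, under which *FAA1* was not called. *FAA1*, the main long-chain acyl-CoA synthetase gene, was at 247, 266 and 296 CPM in *ino4Δ* and 384, 435 and 439.7 CPM in *mga2Δ* (-0.64 ± 0.09, adjusted p = 0.0032). *FAA2*, for a peroxisomal medium-chain synthetase, was at 33.1, 35.0 and 29.3 CPM against 17.7, 21.6 and 16.8 CPM (0.79 ± 0.12, adjusted p = 0.0039). It shares 160 bases with *BUD25* on the opposite strand, and whether reads were counted by strand is not stated. *ICT1*, for a lysophosphatidic acid acyltransferase, was separate but under the fold minimum (0.41 ± 0.07), and the glycerol-3-phosphate acyltransferase genes *GPT2* and *SCT1* overlapped (0.18 ± 0.12 and 0.02 ± 0.07). *SLC1*, *ALE1*, *LOA1*, *AYR1*, *FAA3*, *FAA4* and *FAT1* lay between -0.17 and 0.04. Of 7 phosphatase and kinase genes acting on phosphatidic acid, 0 were called in either direction by edgeR, DESeq2 or limma-voom, with 4 at an unadjusted p below 0.05. All 7 also lay at or above 10 CPM in wild-type, with the same shares of all genes beside them. *PAH1*, the lipin gene, differed by 0.02 ± 0.10 (adjusted p = 0.89) and overlapped, as did its activators *NEM1* (0.14 ± 0.09) and *SPO7* (0.04 ± 0.11). *DGK1*, for the diacylglycerol kinase that opposes it, differed by -0.23 ± 0.08 (adjusted p = 0.064), and *LPP1*, *DPP1* and *APP1* by 0.38, -0.28 and 0.24.

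Storage lipid genes had 2 higher and 0 lower of 16, beside 9.38% and 2.08% of all genes tested, with a median of 0.15. All 16 lay at or above 10 CPM in wild-type, where the shares of all genes were 3.61% and 2.47%. *PLN1*, for a perilipin on lipid droplets, was at 105, 92.6 and 94.6 CPM in *ino4Δ* and 59.1, 61.2 and 59.8 CPM in *mga2Δ* (0.70 ± 0.07, adjusted p = 0.0007), with wild-type below both (36.6 to 46.3 CPM). *LDO45*, for a seipin partner, was at 24.8, 24.2 and 24.8 CPM against 19.4, 15.1 and 14.6 CPM (0.59 ± 0.12, adjusted p = 0.012). This call was at the edge of the fold minimum, was lost on leaving out any of 5 libraries, and the gene shares 447 bases with *LDO16* on the same strand. The acyltransferase gene *DGA1* differed by 0.24 ± 0.08 (adjusted p = 0.061) and *SCS3*, of the fat storage protein family, by -0.31 ± 0.08, under the fold minimum.

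Sterol and sphingolipid genes all lay at or above 10 CPM in wild-type, where 3.61% of all genes were higher and 2.47% lower. Over all genes tested the shares were 9.38% and 2.08%. Of 23 sterol genes, *ERG20*, for farnesyl diphosphate synthase, was lower at 390.3, 393 and 387 CPM against 672, 596 and 586 CPM (-0.66 ± 0.08, adjusted p = 0.0014) and 0 were higher. *ERG26*, *ERG6* and *ERG12* had the next smallest adjusted p, at -0.47, -0.49 and -0.35 and under the fold minimum, and 21 of the 23 genes had a negative value (median -0.23, or -0.11 with library totals, under which *ERG20* was not called). Of 24 sphingolipid genes 0 were called by edgeR and DESeq2 and 1 by limma-voom, with 13 at an unadjusted p below 0.05. With library totals 1 was higher, and without *mga2Δ* replicate 2 there were 2. *KEI1*, *LCB5*, *LAG1* and *LCB3* had the smallest adjusted p, with log2 fold changes of -0.35, 0.47, -0.38 and -0.29.

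**Figure D3:**
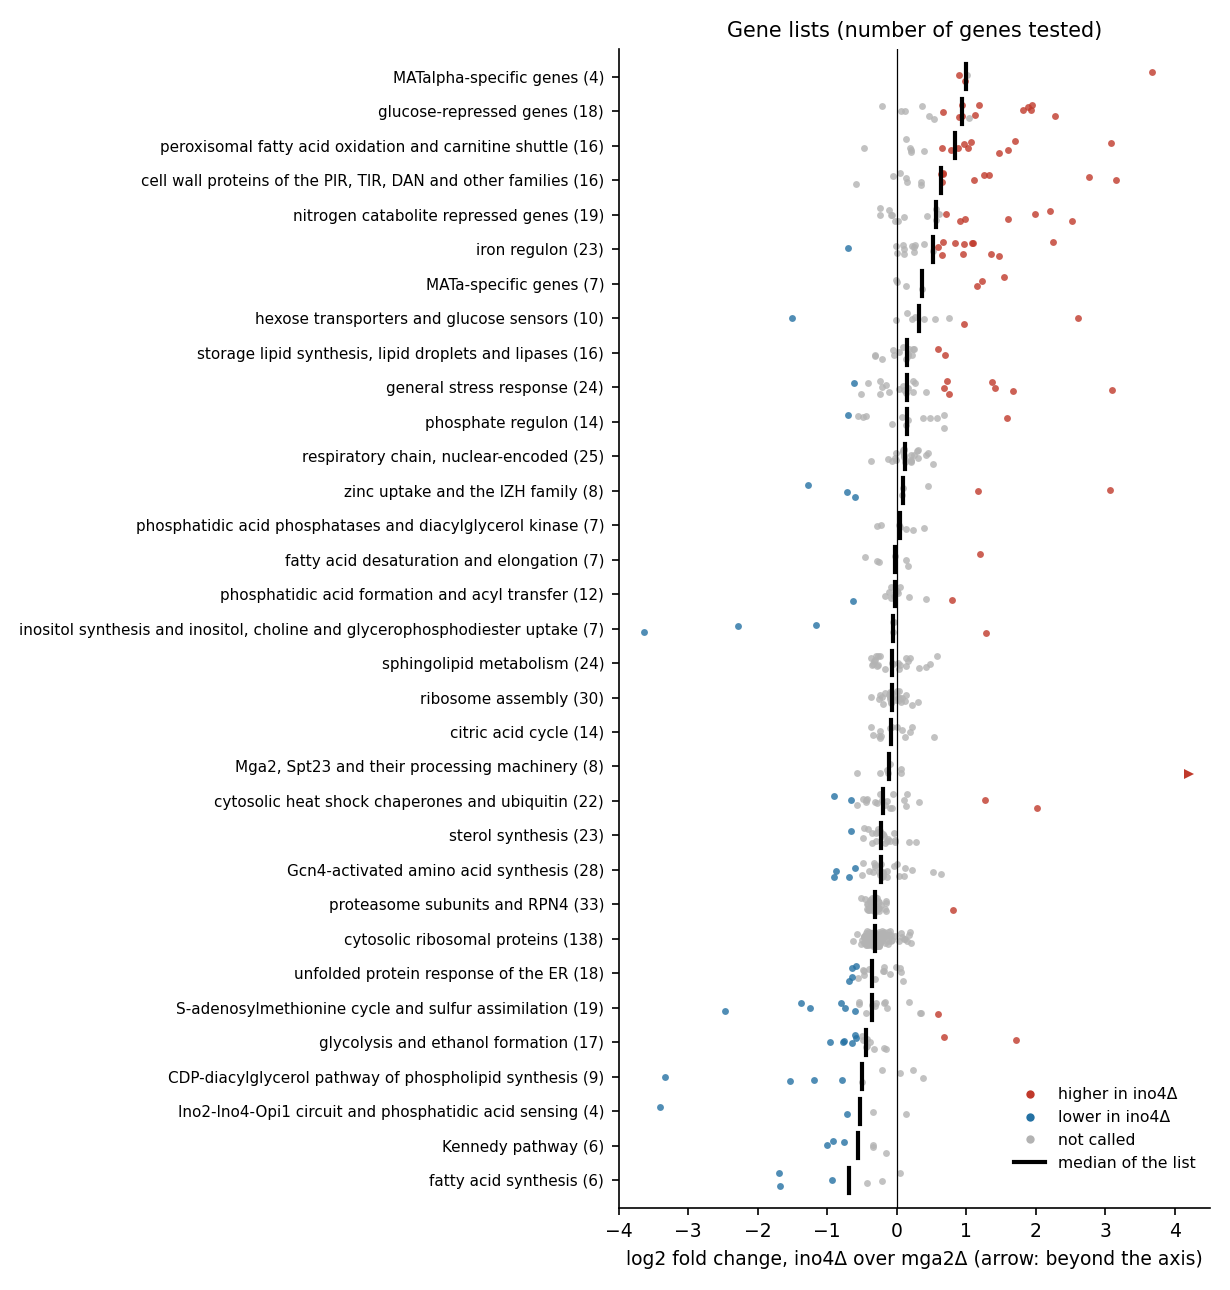
Log2 fold change of *ino4Δ* over *mga2Δ* (x axis) for each gene of each list (y axis, with the number of genes tested), where red points were called higher, blue points lower and grey points not called, and a black tick gives the median of the list. Medians run from -0.69 for fatty acid synthesis to 1.001 for the MATα-specific genes.

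Genes of S-adenosylmethionine (SAM), the methyl donor of Cho2 and Opi3, were among those lower in *ino4Δ*. *SAM2*, for a SAM synthetase, was at 136, 129 and 129 CPM in *ino4Δ* and 779, 675 and 742 CPM in *mga2Δ* (-2.48 ± 0.08, adjusted p = 7.3e-06). Its paralog *SAM1*, named here after its values were seen, was separate but did not pass the test (-0.32 ± 0.13, adjusted p = 0.12). *SAH1*, which removes the product inhibitor S-adenosylhomocysteine, was at 780.2, 697 and 673 CPM against 2219, 1619 and 1743 CPM (-1.38 ± 0.13, adjusted p = 0.00066). *MET6*, the methionine synthase gene, was at 1516, 1476 and 1322 CPM against 3777, 3139 and 3346 CPM (-1.25 ± 0.10, adjusted p = 0.00031). For these 3 genes wild-type lay above both strains, whereas for *MET3*, the ATP sulfurylase gene (-0.80 ± 0.10, adjusted p = 0.0018), wild-type (104 to 141 CPM) lay below both (159, 159 and 159 CPM in *ino4Δ*, 236, 296 and 298 CPM in *mga2Δ*). The list had 6 lower and 1 higher of 19 genes (median -0.36). Of the 17 members at or above 10 CPM in wild-type 6 were lower, beside 2.47% of all genes in that class. The single higher member, *MET32*, a regulator of sulfur assimilation, was at 7.20, 8.10 and 9.14 CPM against 4.55, 5.60 and 5.99 CPM (0.60 ± 0.16, adjusted p = 0.028), and that call was lost on leaving out any of 5 libraries. *SAM3*, the SAM permease gene, named after its values were seen and outside the list, was at 83.2, 77.4 and 78.5 CPM against 211, 195 and 221 CPM (-1.39 ± 0.07, adjusted p = 6.1e-05).

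*ZPS1*, *ADH4*, *VEL1* and *YOR387C* were among the 10 genes with the largest differences in the lower direction, and entered by that rule and not through a list. *ZPS1*, a cell surface protein gene induced by the zinc-sensing activator Zap1, was at 234, 248 and 228 CPM in *ino4Δ* and 1259, 1311 and 1296 CPM in *mga2Δ* (-2.45 ± 0.07, adjusted p = 4.9e-06). *ADH4*, a zinc-deficiency induced alcohol dehydrogenase gene, was at 237, 291 and 223 CPM against 787, 1114 and 1143 CPM (-2.02 ± 0.17, adjusted p = 0.00038). *VEL1* and its paralog *YOR387C*, of unknown function and induced on zinc depletion, were at 3.72, 3.40 and 3.49 CPM against 31.7, 27.7 and 28.6 CPM (-3.05 ± 0.11, adjusted p = 9.4e-06) and at 0.581, 0.681 and 0.686 CPM against 3.85, 3.98 and 4.45 CPM (-2.64 ± 0.20, adjusted p = 0.00022). As near copies these 2 genes may share reads. For all 4 genes wild-type lay above both strains, at 1966 to 3224 CPM for *ZPS1*.

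The list of zinc uptake and IZH genes held 3 lower and 2 higher of 8 genes, with a median of 0.08. All 8 lay at or above 10 CPM in wild-type, where 2.47% of all genes were lower and 3.61% higher. *ZRT1*, the high-affinity zinc transporter gene, was at 1066, 1349 and 1106 CPM against 2846, 2724 and 2953 CPM (-1.28 ± 0.11, adjusted p = 0.00036), *ZRT3*, for vacuolar zinc release, at -0.61 ± 0.08 (adjusted p = 0.0023), and *ZAP1* itself at 87.5, 118 and 113 CPM against 151, 172 and 199.6 CPM (-0.71 ± 0.14, adjusted p = 0.01). The call of *ZRT3* was lost without *ino4Δ* replicate 3 (log2 fold change -0.57) and without *mga2Δ* replicate 1 (-0.56). *ADH1*, an alcohol dehydrogenase gene that Zap1 is known to repress when zinc is scarce, was higher at 2921, 2924 and 3011 CPM against 1729.7, 1815 and 2006 CPM (0.67 ± 0.08, adjusted p = 0.0017). Wild-type overlapped with *mga2Δ* for *ADH1* (1417 to 2338 CPM) and *ZAP1* (150 to 272 CPM). *ZAP1* and *ADH1* were named after their values were seen, and both calls were lost in the fit on all 21 libraries. *IZH1* and *IZH4*, which encode membrane proteins of the PAQR receptor family, were the higher genes. *IZH4* was at 16.1, 20.8 and 17.1 CPM in *ino4Δ* and 2.31, 2.49 and 1.67 CPM in *mga2Δ* (3.06 ± 0.18, adjusted p = 0.00011), and *IZH1* at 57.2, 59.4 and 49.1 CPM against 30.2, 21.6 and 21.98 CPM (1.17 ± 0.15, adjusted p = 0.0019). For *IZH4* wild-type (9.60 to 15.7 CPM) lay between the strains, and for *IZH1* it lay above both (66.4 to 103 CPM). *IZH2* (0.44 ± 0.09, under the fold minimum) and *IZH3* (0.09 ± 0.08, adjusted p = 0.43), named after their values were seen, were not called. *ZRT2*, the remaining zinc transporter gene of the list, was not called either. Of the 8 members 5 had positive and 3 negative log2 fold changes.

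The iron regulon, induced by Aft1 when iron is scarce, had 11 higher and 1 lower of 23 genes and a median of 0.52. *FIT2*, for a cell wall mannoprotein that holds siderophores, was at 35.8, 42.2 and 46.4 CPM in *ino4Δ* and 8.72, 9.57 and 8.03 CPM in *mga2Δ* (2.24 ± 0.13, adjusted p = 8.9e-05). The siderophore transporter genes *ARN1* and *ARN2* were at 55.6, 59.3 and 51.8 CPM against 26.9, 30.6 and 28.0 CPM (0.96 ± 0.09) and 50.9, 56.1 and 53.7 CPM against 24.4, 24.9 and 26.5 CPM (1.08 ± 0.08). Wild-type overlapped with *ino4Δ* for *FIT2* and *ARN1*, at 17.3 to 36.0 and 34.8 to 55.3 CPM. *FET4*, a low-affinity iron transporter gene, was lower at 73.5, 76.3 and 77.8 CPM against 128, 113 and 130.3 CPM (-0.70 ± 0.08, adjusted p = 0.00093). Of the 17 members at or above 10 CPM in wild-type, 6 were higher, against 3.61% of all genes in that class. Without *ino4Δ* replicate 2, 7 members were higher in place of 11.

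**Figure D4:**
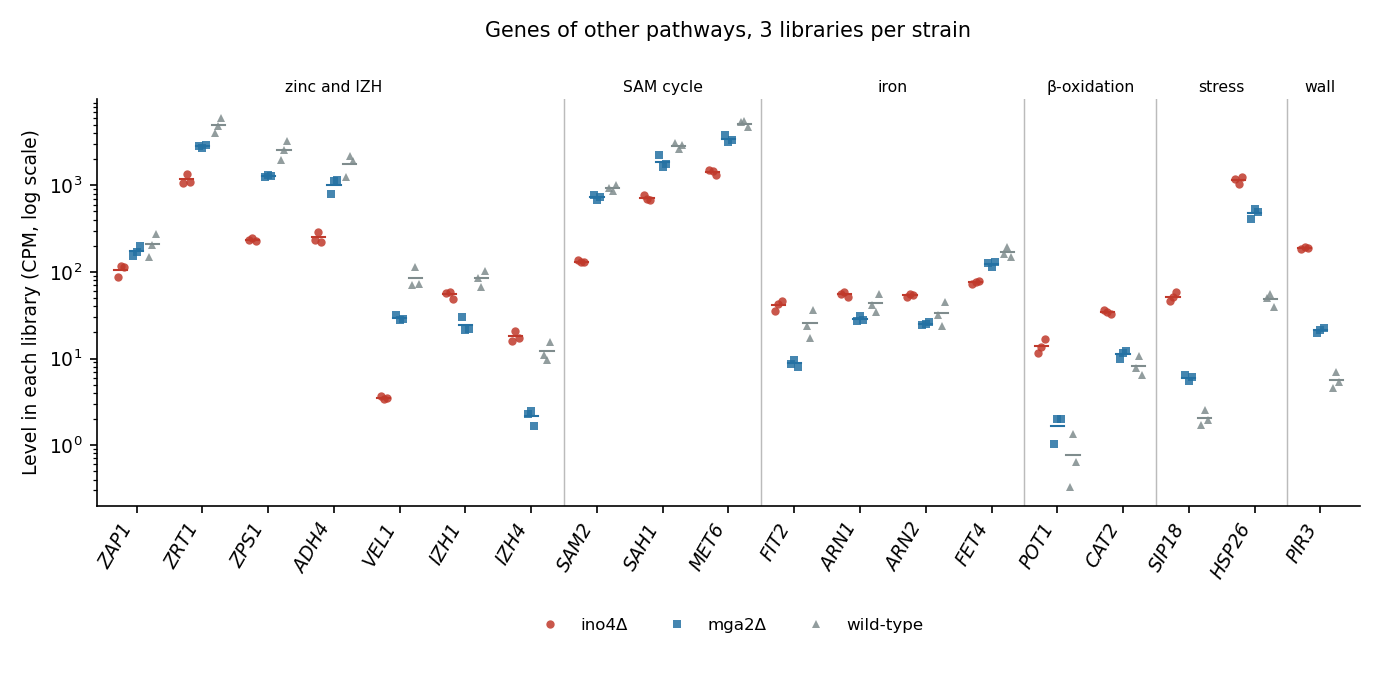
Level in each library in CPM (y axis, log scale) of genes of other pathways in *ino4Δ* (red circles), *mga2Δ* (blue squares) and wild-type (grey triangles), with 3 libraries per strain and a bar at their mean. *ZPS1* stood at 228 to 248 CPM in *ino4Δ*, 1259 to 1311 CPM in *mga2Δ* and higher still in wild-type, whereas the β-oxidation, stress and wall genes shown stood highest in *ino4Δ*.

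Chaperone and stress genes were mixed. In the unfolded protein response of the ER, 4 of 18 genes were lower and 0 higher (median -0.35). All 18 lay at or above 10 CPM in wild-type, where 2.47% of all genes were lower. *KAR2*, the ER Hsp70 gene, was at 2182, 2081 and 2248 CPM in *ino4Δ* and 3020.2, 3579 and 3888 CPM in *mga2Δ* (-0.69 ± 0.11, adjusted p = 0.0039). *SIL1* and *LHS1*, for exchange factors of Kar2, were at 118, 115 and 117 CPM against 173, 194 and 184 CPM (-0.65 ± 0.07) and 221, 223 and 221 CPM against 330.3, 341 and 373 CPM (-0.65 ± 0.07), and *MPD1*, for a disulfide isomerase, at -0.58 ± 0.10 (adjusted p = 0.0065), named after its values were seen. The call of *MPD1* was lost without *ino4Δ* replicate 1 or *mga2Δ* replicate 2 or 3. For *KAR2* and *SIL1* wild-type was lowest of the 3 strains, at 1252 to 1569 and 76.1 to 82.6 CPM. The difference between the deletions here is small, and with library totals in place of TMM 0 of the 18 genes were called and the median was -0.24.

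Among 22 cytosolic heat shock genes, 2 were higher and 2 lower, beside 9.38% and 2.08% of all genes tested. All 22 lay at or above 10 CPM in wild-type, where the shares of all genes were 3.61% and 2.47%. *SSA3*, a stress-induced Hsp70 gene, was at 148, 169 and 183 CPM against 33.3, 43.3 and 47.3 CPM (2.01 ± 0.14, adjusted p = 0.00021), and *HSP26*, a small heat shock protein gene, at 1174, 1041 and 1253 CPM against 411, 531 and 493 CPM (1.27 ± 0.12, adjusted p = 0.00059). *SSA2*, the gene of a constitutive Hsp70, was at 1624, 1524 and 1689.9 CPM against 2555, 3145 and 3351 CPM (-0.90 ± 0.12, adjusted p = 0.0019), and *HSC82*, for a constitutive Hsp90 and named after its values were seen, at -0.65 ± 0.12 (adjusted p = 0.0067). Both have close paralogs, with which reads may be shared, and the call of *HSC82* was lost without *mga2Δ* replicate 3. Without *mga2Δ* replicate 1, 7 heat shock genes were lower in place of 2, and without *mga2Δ* replicate 3, 1 was. *SSE1* was separate but under the fold minimum (-0.58 ± 0.08).

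General stress genes had 7 higher and 1 lower of 24. *SIP18* and *GRE1*, paralogous hydrophilin genes induced by osmotic stress and desiccation, were at 46.0, 50.7 and 58.0 CPM against 6.48, 5.47 and 6.11 CPM (3.10 ± 0.12, adjusted p = 1.7e-05) and at 127, 113 and 122 CPM against 39.4, 37.1 and 37.4 CPM (1.67 ± 0.07, adjusted p = 2.2e-05). *DDR2*, a multistress gene, was at 128, 132 and 166 CPM against 36.4, 57.7 and 66.2 CPM (1.41 ± 0.22), and *TKL2*, a transketolase gene, at 45.1, 49.5 and 73.5 CPM against 16.4, 22.6 and 25.9 CPM (1.37 ± 0.23). For these 4 genes *mga2Δ* already lay above wild-type, in which *GRE1* was at 2.52 to 4.13 CPM. All 6 members below 10 CPM in wild-type were higher, beside 29.4% of all such genes. Of the 18 members above that level 1 was, beside 3.61% of all genes in that class. *HOR7* was the member that was lower (-0.62 ± 0.14, adjusted p = 0.015), a call lost without *ino4Δ* replicate 1 or 2 or *mga2Δ* replicate 3, and it was named after its values were seen. Of 33 proteasome genes, *RPN4*, the activator of the others, was higher at 178, 183 and 189 CPM against 98.8, 108 and 109 CPM (0.80 ± 0.07, adjusted p = 0.00036), whereas the 32 subunit genes all had negative log2 fold changes and 0 were called by edgeR, DESeq2 or limma-voom, with 24 of the 33 genes at an unadjusted p below 0.05 (list median -0.31, or -0.20 with library totals). Without *ino4Δ* replicate 3, 1 subunit gene was lower, and without *mga2Δ* replicate 1, 2 were. *PRE10*, *RPN7* and *PRE9* had the smallest adjusted p of these subunits, at -0.39, -0.43 and -0.36.

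Genes that glucose represses, and those of fatty acid oxidation, were higher in *ino4Δ*. Of 18 glucose-repressed genes 11 were higher and 0 lower (median 0.94). *PCK1*, the gluconeogenic phosphoenolpyruvate carboxykinase gene, was at 25.6, 28.5 and 20.97 CPM in *ino4Δ* and 5.84, 7.58 and 6.17 CPM in *mga2Δ* (1.93 ± 0.16, adjusted p = 0.00032), and *JEN1*, a lactate transporter gene, at 19.3, 17.4 and 13.8 CPM against 3.40, 5.10 and 5.19 CPM (1.88 ± 0.20, adjusted p = 0.0009). *ACS1*, an acetyl-CoA synthetase gene, was at 41.7, 38.6 and 39.5 CPM against 15.6, 19.02 and 18.1 CPM (1.18 ± 0.10), and *SUC2*, for invertase, at 99.5, 95.0 and 90.1 CPM against 61.2, 59.3 and 58.6 CPM (0.67 ± 0.06). Of the 16 genes of peroxisomal fatty acid oxidation and the carnitine shuttle 10 were higher and 0 lower (median 0.83). *POT1*, for peroxisomal thiolase, was at 11.7, 13.7 and 16.97 CPM against 1.03, 1.99 and 1.98 CPM (3.08 ± 0.26, adjusted p = 0.00036) and *CAT2*, for carnitine acetyltransferase, at 36.0, 34.5 and 32.4 CPM against 9.94, 11.7 and 12.2 CPM (1.60 ± 0.11, adjusted p = 0.00017). *CRC1*, a mitochondrial carnitine carrier gene, and *SPS19*, a dienoyl-CoA reductase gene, were higher by 1.47 ± 0.19 and 1.03 ± 0.13. Both lists hold mostly genes of low level. Below 10 CPM in wild-type, 9 of 11 and 8 of 10 members were higher. Of the members of that class at the low-count minimum in wild-type, 5 of 7 and 7 of 9 were, beside 29.4% of all such genes. From 10 CPM upwards 2 of 7 and 2 of 6 members were higher, beside 3.61% of all genes in that class.

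Glycolysis ran the other way, with 6 lower and 2 higher of 17 genes (median -0.45), beside 2.08% and 9.38% of all genes tested. All 17 lay at or above 10 CPM in wild-type, where the shares of all genes were 2.47% and 3.61%. Most glycolysis genes have high levels, and the class from 100 CPM upwards had 5.60% lower genes and a median of -0.17. *ENO2*, the enolase gene, was at 6672, 6708 and 7288 CPM in *ino4Δ* and 13225, 13375 and 13591 CPM in *mga2Δ* (-0.96 ± 0.08, adjusted p = 0.00031). *TPI1* and *PGK1*, for triosephosphate isomerase and phosphoglycerate kinase, differed by -0.78 ± 0.07 and -0.75 ± 0.08. The *mga2Δ* libraries lay below wild-type for *ENO2* and *TPI1* and overlapped with it for *PGK1*. *PDC5*, a pyruvate decarboxylase gene, was higher at 120.4, 82.0 and 90.0 CPM against 29.5, 27.9 and 31.3 CPM (1.72 ± 0.15, adjusted p = 0.00039), and *ADH1* was the other higher gene. With library totals, or without *mga2Δ* replicate 1, 3 genes were lower in place of 6. Of 10 hexose transporter and sensor genes, *HXT10* (at 3.02, 2.35 and 2.74 CPM against 0.321, 0.497 and 0.494 CPM, 2.61 ± 0.26, adjusted p = 0.00066) and *HXT4* (0.97 ± 0.24, adjusted p = 0.024) were higher and *HXT1*, for a low-affinity transporter induced by high glucose, was lower (155, 157 and 97.2 CPM against 428, 352 and 385 CPM, -1.51 ± 0.19, adjusted p = 0.0018). Over all genes tested 9.38% were higher and 2.08% lower. Of the 8 members at or above 10 CPM in wild-type 1 was higher and 1 lower, beside 3.61% and 2.47% of all genes in that class. *HXT10* reached the low-count minimum in no *mga2Δ* library and was tested only through *ino4Δ*. The call of *HXT4* was lost without *ino4Δ* replicate 1 or 2 or *mga2Δ* replicate 3, and the sensor gene *RGT2* was under the fold minimum (0.26 ± 0.07). HXT genes are near copies of each other, among which reads may be shared. Citric acid cycle genes had 0 calls of 14 by edgeR, DESeq2 and limma-voom, with 6 at an unadjusted p below 0.05 (*IDH2* -0.35 ± 0.08, *LSC1* -0.24 ± 0.06, *IDH1* -0.25 ± 0.07 and *FUM1* -0.23 ± 0.06 had the smallest adjusted p), and respiratory chain genes 0 of 25 by the same tools, with 10 at an unadjusted p below 0.05 (*NDE1* 0.52 ± 0.07, *QCR7* 0.41 ± 0.06, *COX12* 0.30 ± 0.07 and *COX13* 0.25 ± 0.06).

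Nitrogen catabolite repressed genes had 7 higher and 0 lower of 19 (median 0.57). *PUT1*, for proline oxidase, was at 102, 71.8 and 79.0 CPM in *ino4Δ* and 13.9, 23.7 and 17.7 CPM in *mga2Δ* (2.20 ± 0.21, adjusted p = 0.00064). *DAL80*, a GATA repressor gene, was at 3.37, 3.46 and 4.80 CPM against 0.577, 0.870 and 0.556 CPM (2.53 ± 0.27), *DAL1*, for allantoinase, at 4.88, 5.38 and 4.51 CPM against 1.60, 1.18 and 0.926 CPM (1.99 ± 0.22), and *DUR12*, for urea amidolyase, at 318, 289 and 301 CPM against 190.2, 183 and 183 CPM (0.71 ± 0.07). Below 10 CPM in wild-type 5 of 7 members were higher (4 of the 6 at the low-count minimum in wild-type, beside 29.4% of all such genes). From 10 CPM upwards 2 of 12 were, beside 3.61% of all genes in that class. Amino acid synthesis genes under Gcn4 had 4 lower and 0 higher of 28 by edgeR, with 12 at an unadjusted p below 0.05. All 28 lay at or above 10 CPM in wild-type, where 2.47% of all genes were lower. DESeq2 and limma-voom called 1 higher each, and with library totals edgeR called 2 lower and 1 higher. *HIS4* and *HIS1*, of histidine synthesis, were at 351, 305 and 259 CPM against 692, 508 and 483 CPM (-0.88 ± 0.17, adjusted p = 0.0085) and 161, 148 and 135 CPM against 336, 241 and 255 CPM (-0.90 ± 0.14, adjusted p = 0.0036). *ARG4* differed by -0.69 ± 0.11 and *SER33* by -0.61 ± 0.08, and each lost its call on leaving out *mga2Δ* replicate 1 (*ARG4*), or *ino4Δ* replicate 3 or *mga2Δ* replicate 2 or 3 (*SER33*). In the phosphate regulon of 14 genes, 1 was higher and 1 lower, beside 9.38% and 2.08% of all genes tested. *PHO89*, a phosphate transporter gene, was higher at 17.9, 10.6 and 9.60 CPM against 2.95, 6.09 and 3.70 CPM (1.58 ± 0.33, adjusted p = 0.013), a call lost without *mga2Δ* replicate 3. *VTC3*, of the polyphosphate polymerase complex, was lower at 118, 112 and 109 CPM against 176, 181 and 197 CPM (-0.71 ± 0.07, adjusted p = 0.0007). *VTC2* and *VTC4* of the same complex were under the fold minimum (-0.56 ± 0.07 and -0.44 ± 0.07). Without *ino4Δ* replicate 3, 3 genes of the regulon were lower, and without *mga2Δ* replicate 1, 2 were higher and 2 lower.

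Cell wall protein genes had 9 higher and 0 lower of 16 by edgeR (median 0.64), with 12 at an unadjusted p below 0.05, and 1 was lower by DESeq2 and by limma-voom. *PIR3*, for a wall protein of the cell integrity response, was at 182, 195 and 189 CPM in *ino4Δ* and 19.8, 21.3 and 22.8 CPM in *mga2Δ* (3.15 ± 0.08, adjusted p = 1.6e-06), against 4.58 to 6.94 CPM in wild-type. *PST1*, another gene of that response, was at 414, 405 and 408 CPM against 186, 193 and 188 CPM (1.11 ± 0.06, adjusted p = 7.8e-05). *SED1*, a major structural mannoprotein gene, was at 2040.5, 2076 and 2323 CPM against 1324, 1381 and 1365 CPM (0.66 ± 0.08), and *TIR1*, a cold- and anaerobically induced mannoprotein gene, at 27.9, 25.3 and 29.6 CPM against 12.9, 10.01 and 11.98 CPM (1.25 ± 0.12). Of the 10 members at or above 10 CPM in wild-type 4 were higher, against 3.61% of all genes in that class. Below that level 5 of 6 members were higher (4 of the 5 at the low-count minimum in wild-type, beside 29.4% of all such genes). *DAN1*, among the higher members and named after its values were seen, reached the minimum in no *mga2Δ* library. It was tested only through *ino4Δ*. TIR and PIR genes have repeats and close relatives that can share reads.

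Ribosomal protein genes were taken by name (RPL, RPS or RPP and a number), which also took in *RPP1*, not a ribosomal protein gene. This list had 0 calls among 138 by edgeR and limma-voom and 1 by DESeq2, with 83 at an unadjusted p below 0.05. Of the 138, 129 had negative log2 fold changes, with a median of -0.31 (-0.20 with library totals). *RPL11A*, *RPS29B*, *RPL4B* and *RPL4A* had the smallest adjusted p, at -0.47, -0.46, -0.48 and -0.46, and paralogs of these genes share reads. These genes have high levels in wild-type, where the class from 100 CPM upwards had a median of -0.17. Of 30 ribosome assembly genes 0 were called by edgeR, DESeq2 and limma-voom, with 1 at an unadjusted p below 0.05, and *GAR1*, *NOP1*, *UTP13* and *RRP9* had the smallest adjusted p (0.1 to 0.37).

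Genes of mating type were read in both deletion strains, for which the labels give no background strain. MATa-specific genes were present in both strains and 3 of 7 were higher in *ino4Δ*. All 7 lay at or above 10 CPM in wild-type, where 3.61% of all genes were higher. *MFA1*, for the a-factor precursor, was at 44.5, 56.2 and 56.0 CPM against 26.9, 19.2 and 21.3 CPM (1.22 ± 0.15, adjusted p = 0.0017), *AGA2*, for an agglutinin subunit, at 52.0, 60.5 and 55.8 CPM against 31.5, 21.4 and 22.7 CPM (1.16 ± 0.15), and *ASG7* at 17.4, 21.3 and 20.3 CPM against 7.18, 6.22 and 6.92 CPM (1.54 ± 0.12). *BAR1* overlapped in no library but did not pass the test (0.36 ± 0.13, adjusted p = 0.085). Genes specific to MATα cells were near 0 for the α-factor genes, with *MF(ALPHA)1* at 1.05, 0.557 and 0.572 CPM in *ino4Δ* and 0.705, 0.0622 and 0.309 CPM in *mga2Δ*. *MF(ALPHA)2* had 45 reads over the 3 *ino4Δ* libraries and 3 over the *mga2Δ* libraries, a ratio of 15.3 (exact 95% interval 4.90 to 76.8, counting error only). It reached the low-count minimum in no *mga2Δ* library and was tested only through *ino4Δ*. *STE3*, the a-factor receptor gene, was at 12.4, 14.2 and 12.7 CPM against 6.86, 6.90 and 6.11 CPM (0.99 ± 0.12, adjusted p = 0.0013), and *SAG1*, for α-agglutinin, at 26.0, 31.2 and 28.7 CPM against 17.1, 14.6 and 14.6 CPM (0.89 ± 0.11). The summed level of the 4 MATα-specific genes was 40.6 to 46.7 CPM in *ino4Δ*, 21.1 to 24.8 CPM in *mga2Δ* and at most 22.7 CPM in wild-type. The part of other cell types in the results was not tested.

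The remaining genes with the largest differences were all higher in *ino4Δ*. *ANS1*, a putative cell surface protein gene, had 262 reads over the 3 *ino4Δ* libraries and 2 over the *mga2Δ* libraries, a ratio of 133 (exact 95% interval 36.5 to 1110.0, counting error only), and wild-type had 0 to 3 reads per library. *PRM6*, a pheromone-regulated potassium transporter gene, was at 1.86, 1.48 and 1.83 CPM against 0.0641, 0.0622 and 0.123 CPM (4.25 ± 0.37, adjusted p = 0.00039). *FIG1*, for a membrane protein of mating cells, was at 5.75, 9.71 and 8.40 CPM against 0.834, 0.684 and 0.494 CPM (3.56 ± 0.30, adjusted p = 0.00036). *HUG1*, a DNA damage checkpoint gene that restrains ribonucleotide reductase, was at 31.0, 36.4 and 35.8 CPM against 2.05, 4.04 and 3.95 CPM (3.35 ± 0.22, adjusted p = 0.00017). Wild-type overlapped with *mga2Δ* for *PRM6*, *FIG1* and *HUG1*. *YMR175W-A*, of unknown function and beside *SIP18*, was higher by 3.15 ± 0.16, and *YJL195C*, a dubious reading frame known to overlap *CDC6*, by 3.59 ± 0.26. *YAR073W*, a blocked reading frame related to the IMD genes and with 1 to 35 reads per library, was higher by 3.10 ± 0.70, a call lost without *mga2Δ* replicate 3. *ANS1*, *PRM6*, *YJL195C* and *YAR073W* reached the low-count minimum in no *mga2Δ* library and were tested only through *ino4Δ*.

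The UASINO core was counted in the promoters of lower, higher and all genes. Among tested protein-coding genes with a full window of 500 bases, 731 of 5649 (12.9%) had CATGTG or its reverse complement CACATG. The share was 41 of 117 (35.0%) for genes lower in *ino4Δ*, 16 of 31 (51.6%) for those lower by more than 2-fold, and 61 of 523 (11.7%) for higher genes. It was 7 of 9 in the CDP-diacylglycerol list, 3 of 7 for inositol and choline, 3 of 6 in the Kennedy pathway and 2 of 6 for fatty acid synthesis. A core was not found in the windows of *FAS1*, *EPT1* and *OPI1*, which were lower, and was found in those of *CDS1*, *PSD2*, *PGS1*, *EKI1* and *INO2*, which were not called. LORE was present in 22 of all 5649 windows (0.389%), in 0 of the lower genes and in 3 of 523 higher genes (0.574%). The stress response element AGGGG or CCCCT was present in 34.3% of all windows, 35.9% of those of lower genes and 42.3% of those of higher genes.

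Genes of chromosome XII to the right of the ribosomal DNA had mostly positive log2 fold changes. Their median log2 fold change was 0.22 over 273 genes, of which 223 had a positive value, against 0.09 over 203 genes left of the ribosomal DNA and -0.01 over 5192 genes of the other chromosomes. Relative to the *mga2Δ* mean, the median was 0.22 to 0.23 in each of the 3 *ino4Δ* libraries, -0.01 to 0.01 in the *mga2Δ* libraries and 0.00 to 0.04 in wild-type. Called genes were 28 higher and 1 lower of the 273, beside 9.38% and 2.08% of all genes. Copy number was not measured and its part was not tested. The ribosomal DNA spans 451575 to 467569 of chromosome XII in R64.

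**Figure D5:**
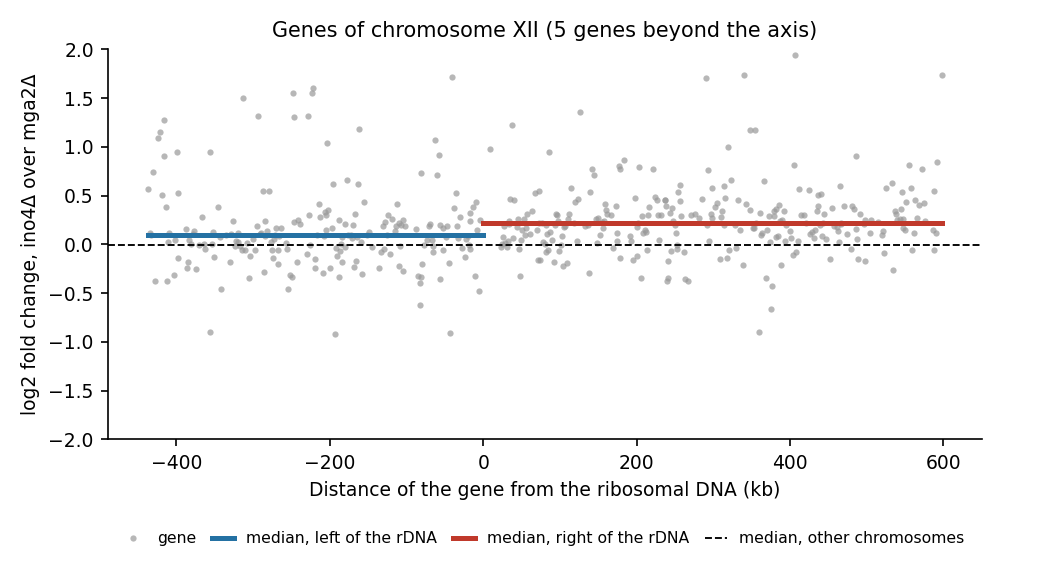
Log2 fold change of *ino4Δ* over *mga2Δ* (y axis) of protein-coding genes on chromosome XII against their distance from the ribosomal DNA in kb (x axis, negative to the left), with medians of the genes on either side and of the other chromosomes. The median right of the ribosomal DNA was 0.22 and that of the other chromosomes -0.01.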

How the data were processed

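The authors extracted RNA by hot phenol, removed ribosomal RNA, sequenced single-end 50-base reads, aligned them to the R64-1-1 genome with STAR 2.5.1b and assigned reads to genes by HTSeq 0.5.4p3. Their deposited counts, not normalized, were used. Their deposited normalized table was not used. Whether counting used strand is not given in the sources used here.

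The 3 *ino4Δ* and 3 *mga2Δ* libraries (15610451 to 17060991 counts) were compared with edgeR 4.0.16 in R 4.3.3: TMM scaling, filterByExpr (minimum count 10, total 15), robust quasi-likelihood F test, 4 residual degrees of freedom, Benjamini-Hochberg adjustment over all 6106 genes tested. Every adjusted p is from this test. The standard error is the log2 fold change divided by the square root of F. Wild-type CPM were put on the scale of the 6 libraries and not tested. Limma 3.58.1 (voom) and DESeq2 1.42.0 served as alternatives. The fit was tested on simulated data first. Motifs were searched with Python 3.11.15.

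Named genes were the deleted genes, markers and deletion neighbours, every gene of the lipid regulator, phospholipid, fatty acid and phosphatidic acid lists, up to 4 genes with the smallest adjusted p of each other list, and the 10 largest changes in each direction among genes that did not overlap and averaged 10 or more counts. The members and lists were chosen with earlier results of these data known. Exact intervals cover counting error only.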

Additional observations from a re-analysis of the deposited data

How the results depend on the processing

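The comparison gave 573 higher and 127 lower genes. Library totals in place of TMM gave 707 and 75 genes, adjusted p alone without a fold minimum gave 975 and 753, and glmTreat against the 1.5-fold minimum gave 219 and 38. Higher genes were 81.9% of the calls, and 90.4% with library totals. Leaving out 1 library at a time gave 417 to 607 higher and 107 to 154 lower genes. Voom (576 and 122), DESeq2 (552 and 144), RLE factors, other low-count filters, nuclear reading frames only and a fit on all 21 libraries stayed within 1.5 times of both counts. Counted only among genes at the low-count minimum in all 3 wild-type libraries, an alternative chosen after seeing the data, the calls were 428 and 127. With the replicate number as a block the counts were 590 and 131. Deviations of same-numbered libraries correlated at 0.43, -0.11 and 0.22, and those of the other pairs at -0.44 to 0.39. Whether same-numbered libraries share a batch is not stated and was not tested. Of 132 named genes called, 86 were called under all alternatives that kept them and 0 changed direction. *LDO45* lost its call in 10 of 17 alternatives, and *MPD1* and *MET32* in 9.

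With 3 libraries per strain and 4 residual degrees of freedom, differences near 1.5-fold may not be detectable. Genes below 1 CPM rest on few reads, and 58 of the 573 higher genes reached the low-count minimum in the *ino4Δ* libraries and in no *mga2Δ* library.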

Other observations

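Other groups of genes differed that the lists above did not hold. The lists and genes here were chosen after their values were seen, so their counts are descriptions only. Of 24 genes induced by mating pheromone or acting in its pathway, 15 were higher in *ino4Δ* and 0 lower, with a median log2 fold change of 0.75. *FUS1*, for a protein of cell fusion, was at 29.0, 31.3 and 29.6 CPM in *ino4Δ* and 11.4, 9.45 and 8.71 CPM in *mga2Δ* (1.60 ± 0.12, adjusted p = 0.00022). *AGA1*, the anchor subunit gene of a-agglutinin, was at 49.4, 46.6 and 55.3 CPM against 21.7, 15.8 and 14.9 CPM (1.53 ± 0.15, adjusted p = 0.00072). *STE12*, the gene of the transcription factor of the pathway, overlapped between the strains (0.15 ± 0.17). Of the 16 genes at or above 10 CPM in wild-type 9 were higher, against 3.61% of all genes in that class. Below that level, 6 were at the low-count minimum in wild-type and 4 of the 6 were higher, beside 29.4% of all such genes. Of the 24 genes, 1 reached the minimum in all *ino4Δ* libraries and in no *mga2Δ* library.

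Of 15 genes of ribonucleotide reductase and the DNA damage response, 9 were higher and 0 lower (median 0.81). Of the 14 at or above 10 CPM in wild-type 8 were higher, beside 3.61% of all genes in that class. *RNR3*, the damage-induced large subunit gene of ribonucleotide reductase, was at 74.2, 83.1 and 68.5 CPM in *ino4Δ* and 22.9, 15.7 and 15.6 CPM in *mga2Δ* (2.06 ± 0.16, adjusted p = 0.0003). The small subunit genes *RNR2* and *RNR4* were higher by 0.90 ± 0.09 and 1.14 ± 0.08, and *RNR1*, the constitutive large subunit gene, overlapped between the strains (-0.28 ± 0.20). Of 10 histone genes 5 were lower and 0 higher (median -0.63), among them *HTB2* (127, 121 and 135 CPM against 264, 251 and 259.5 CPM, -1.02 ± 0.07) and *HTA2*, whose libraries did not overlap either, and gene pairs encoding the same histone may share reads. All 10 histone genes lay at or above 10 CPM in wild-type, where 2.47% of all genes were lower. Of 24 thiamine and pyridoxine genes 12 were higher (median 0.70), with *THI4*, a thiazole synthase gene, at 54.2, 43.3 and 41.7 CPM against 8.34, 9.14 and 9.94 CPM (2.34 ± 0.13, adjusted p = 8.9e-05). Some THI genes are near-identical copies, and 14 of the 24 lay below 10 CPM in wild-type. Of these, 8 were at the low-count minimum there and 5 of the 8 were higher, beside 29.4% of all such genes. Of the 10 at or above 10 CPM 3 were higher, beside 3.61% of all genes in that class. Of the 24 genes, 1 reached the minimum in all *ino4Δ* libraries and in no *mga2Δ* library.

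Of 51 genes of meiosis and spore formation, 32 were higher and 0 lower (median 0.995), and 47 lay below 10 CPM in wild-type. Of these, 27 were at the low-count minimum in wild-type and 16 of the 27 were higher, against 29.4% of all such genes. Of the 51 genes, 2 reached that minimum in all *ino4Δ* libraries and in no *mga2Δ* library. *PES4*, for an RNA-binding protein, was at 10.2, 8.23 and 7.49 CPM against 1.03, 1.49 and 1.36 CPM (2.73 ± 0.21), while *NDT80*, the gene of the middle-meiotic activator, did not pass the test (0.21 ± 0.12, adjusted p = 0.23). Of 14 purine synthesis genes 5 were lower, with *ADE17* at 169, 146 and 108 CPM against 460.5, 252 and 268 CPM (-1.21 ± 0.26, adjusted p = 0.014). All 14 purine genes lay at or above 10 CPM in wild-type, where 2.47% of all genes were lower. Only 1 was lower without *ino4Δ* replicate 2 or without *mga2Δ* replicate 1, 2 without *ino4Δ* replicate 3 and 3 without *ino4Δ* replicate 1, and *ADE17* lost its call without *ino4Δ* replicate 2.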
